A study of Saccharomyces cerevisiae with 96 samples.

Results

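The transcriptomes of 12 evolved yeast populations growing on xylulose were compared with those of the same populations growing on glucose. All columns that the labels describe as evolved entered the comparison: 12 on xylulose and 12 on glucose, or 24 of the 48 columns of the table. The labels give 2 repeated libraries of Saccharomyces cerevisiae RNA for each column, or 48 of the 96 libraries of the series here, and how the repeats were combined into 1 column is not given in the sources used here. A xylulose column and a glucose column were taken as a pair when they carried the same number from 1 to 12. The founders were the strains YPS1009, T73, T7, Y12, YJM269, PW5, CLIB215, CLIB324, CBS7960, EC1118, BY4743 and SK1. Every evolved sample had behind it about 300 generations of daily dilution in YP-xylulose, a rich medium in which the sugar is a mixture of xylose and xylulose and only the xylulose is consumed. Every sample was a mixed population and not a clone. For the measurement the same populations were grown in YP-xylulose or in YPD, the same rich medium with glucose, and harvested in log phase. The 24 unevolved columns, here called wild type, are the same 12 strains on both sugars with 0 generations on xylulose. They were used to show where the response of the evolved populations differed.

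Glucose is the preferred sugar of yeast. While it lasts, most of it is fermented to ethanol, and genes for respiration and for the use of other carbon sources are held down by glucose repression. Xylulose, a pentose, enters metabolism through xylulokinase and the pentose phosphate pathway, and reaches glycolysis only at the level of its phosphorylated intermediates.

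Values are in RPM, reads scaled to a total of 1000000 in each library and so a share of each library's counted reads, and entries below 10 RPM are blank in the table. A ratio here is the log2 of the xylulose value minus the log2 of the glucose value of the same number, averaged over the 12 numbers, with blanks set to 10 RPM. A gene was called when limma's moderated test of these 12 differences gave a Benjamini-Hochberg adjusted p under 0.05 over all genes tested. Where a gene was blank in every column of 1 sugar, its ratio is a lower bound in size. Such a gene could reach the level needed for a test only through the other sugar. In bulk samples, fewer cells of a type and less RNA per cell cannot be told apart, and an RPM value is a share of the RNA, not an amount per cell.

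The numbers paired the 2 sugars, but may not all pair an evolved population with its founder, although the labels give each number 1 strain. Of 59 genes whose level is typical of a strain, evolved columns 1 to 4 matched the wild type of their own number best, with a correlation across genes from 0.575 upwards. Evolved columns 5 to 8 matched wild type 9 to 12, and evolved columns 9 to 12 matched wild type 5 to 8, in 8 of 8 cases. These correlations ran from 0.578 in number 12 to 0.923 in number 9. No strain name is therefore attached to evolved numbers 5 to 12 here, and evolved and wild type ratios were compared as unpaired groups. Within the evolved columns 10 of 12 glucose columns matched the xylulose column of their own number best by the same genes. The glucose column of number 8 stood apart in its total, with 888352 RPM summed over genes against at least 971275 in the other 23 evolved columns. In low values of 5 of the 24 columns the step of a single read was visible, which gave 680898 to 1114020 reads. They were the glucose columns of numbers 4, 6, 10 and 12 and the xylulose column of number 1. In these 5 columns 97.0% to 98.1% of the low values lay on a single step, which a mean of 2 separately scaled libraries would not give, so that the columns may not all have been made in the same way. The depth of the others is unknown.

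The response to the sugar was broad. Of 5136 genes tested, 1234 were called higher on xylulose and 811 lower, which is 24% and 15.8% of all genes. With median-of-ratios scaling in place of the authors' scaling to a fixed total, the split was 1008 higher and 1049 lower, and the median ratio of all genes moved from 0.08 to -0.02. Of all genes tested, 493 (9.6%) were called at least 2-fold higher and 301 (5.86%) at least 2-fold lower. For 182 genes (3.54%) every xylulose value lay above every glucose value, and for 50 (0.974%) every xylulose value lay below. The sign was the same in 12 of 12 numbers for 505 of the genes called higher and 197 of those called lower. Few genes had values on 1 sugar and were blank on the other. FRE7 (YOL152W, chromosome XV, 40748 to 42610), which encodes a copper-regulated metal reductase, was the 1 gene with a value in all 12 xylulose columns and in 0 glucose columns. The reverse held for 5 genes, PHO5, PHO11, PHM6, HXT1 and HUG1.

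The 12 largest rises were those of CYC1, SUC2, JEN1, CTR1, AGX1, IDP2, CTR3, FRE7, SFC1, ODC1, FDH1 and CYB2, with ratios from 4.51 down to 3.54. They encode cytochrome c, secreted invertase, the lactate and pyruvate permease, copper transporters, an alanine:glyoxylate transaminase, a cytosolic isocitrate dehydrogenase that yields NADPH, carriers of the mitochondrial inner membrane, formate dehydrogenase and a lactate dehydrogenase of the mitochondrial intermembrane space. The 12 largest falls were those of PHO12, TIR1, PHO5, PHM6, ADE17, MFA1, PHO11, MFA2, PHO84, HXT3, PHO89 and CUP1-1, with ratios from -5.997 to -4.25. Among these are acid phosphatases and phosphate transporters, an anaerobic cell wall mannoprotein, an enzyme of purine synthesis, the genes of mating pheromone a, a low-affinity glucose transporter and copper metallothionein. CUP1-2, the neighbouring copy of CUP1-1, has a row identical to it in the table, and how reads shared by near-identical copies such as PHO11 and PHO12 were counted is not stated in the sources used here.

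**Figure D1:**
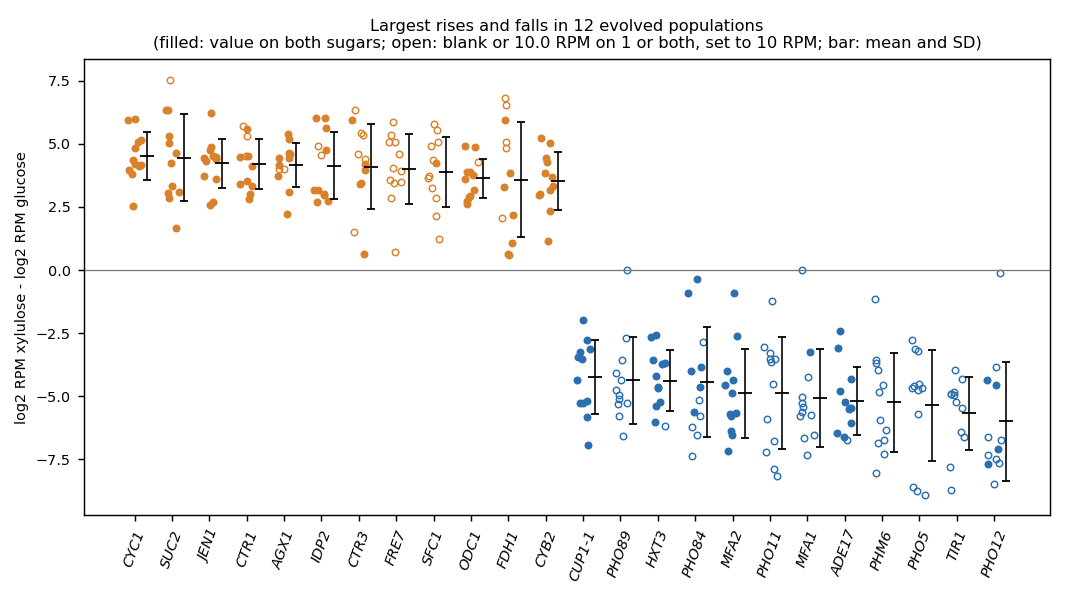
Ratios of the 12 largest rises and the 12 largest falls, by evolved population (vertical axis, log2 of xylulose over glucose), with the mean and SD over the 12 numbers. Filled points have a value on both sugars, and open points are blank, or at 10.0 RPM, on at least 1 of them and drawn with 10 RPM. The rises lie above 0 in all 12 numbers, while for PHO12, PHO84, PHO89 and MFA1 the point of number 12 lies close to 0.

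Promoters of the genes at both ends are printed because these genes moved together, and because known binding motifs of yeast regulators can be read in some of them. The 300 bases shown run from 400 to 101 bases before the start codon in the RefSeq copy of build R64, 5′ to 3′ on the strand of the gene, with motifs in capitals.
PHO5 promoter, reverse strand, chrII:431052-431351: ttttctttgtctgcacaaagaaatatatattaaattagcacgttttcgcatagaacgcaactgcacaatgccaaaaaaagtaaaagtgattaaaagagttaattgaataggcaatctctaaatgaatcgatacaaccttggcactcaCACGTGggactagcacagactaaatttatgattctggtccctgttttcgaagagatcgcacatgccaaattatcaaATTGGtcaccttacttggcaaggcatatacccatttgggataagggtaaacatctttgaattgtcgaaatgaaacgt
PHO12 promoter, forward strand, chrVIII:551699-551998: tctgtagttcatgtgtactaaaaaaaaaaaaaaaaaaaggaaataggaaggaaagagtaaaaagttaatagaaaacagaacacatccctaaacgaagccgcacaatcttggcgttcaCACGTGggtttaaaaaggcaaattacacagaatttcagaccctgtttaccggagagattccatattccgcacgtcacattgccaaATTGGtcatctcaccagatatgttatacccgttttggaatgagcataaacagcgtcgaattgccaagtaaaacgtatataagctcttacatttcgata
TIR1 promoter, forward strand, chrV:174848-175147: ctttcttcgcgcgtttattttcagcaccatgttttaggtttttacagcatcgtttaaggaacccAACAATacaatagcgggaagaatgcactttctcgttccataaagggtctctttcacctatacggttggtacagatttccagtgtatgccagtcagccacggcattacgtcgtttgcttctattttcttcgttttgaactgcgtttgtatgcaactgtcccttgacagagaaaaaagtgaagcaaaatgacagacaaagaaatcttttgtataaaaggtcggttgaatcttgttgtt
JEN1 promoter, forward strand, chrXI:21834-22133: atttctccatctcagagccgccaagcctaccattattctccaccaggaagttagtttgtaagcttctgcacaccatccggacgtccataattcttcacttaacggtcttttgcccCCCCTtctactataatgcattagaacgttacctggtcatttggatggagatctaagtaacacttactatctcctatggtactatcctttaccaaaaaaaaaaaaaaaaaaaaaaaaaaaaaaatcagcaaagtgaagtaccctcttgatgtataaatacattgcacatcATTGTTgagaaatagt
In PHO5 and PHO12 the capitals mark CACGTG, a site of the phosphate regulator Pho4 and of Cbf1, at 253 to 248 and at 283 to 278 bases before the start codon, and ATTGG, which is CCAAT on the other strand. In TIR1 they mark AACAAT, which is ATTGTT on the other strand, the core of the site of the aerobic repressor Rox1. In JEN1 they mark ATTGTT and CCCCT, the latter being AGGGG (Msn2/4) on the other strand. The same windows of CYC1 and SUC2 hold none of the 6 motifs searched on both strands, which were these 4, GCGGGG (Mig1) and TGACTC (Gcn4). CACGTG stood in 5 of the 12 promoters of genes that fell most, all of them phosphate genes (PHM6, PHO5, PHO11, PHO12 and PHO89), and in 1 of the 12 that rose most, IDP2. Of 6001 promoters of this length, 4.55% hold it. ATTGTT was in 31.9% of the 6001, in 3 of the 12 largest falls and in 2 of the 12 largest rises. AGGGG was in 23.5%, in 0 of these falls and 4 of these rises. CCAAT, the site of the respiratory activator Hap2/3/4/5, was in 43.9% of the 6001 promoters, in 4 of 4 succinate dehydrogenase promoters, 8 of 9 of the cytochrome bc1 complex, 8 of 9 of cytochrome c oxidase and 15 of 17 of the ATP synthase. It was not more frequent in every list that rose: 30 of 73 mitochondrial ribosomal protein promoters, 9 of 22 of the mitochondrial gene expression factors, 10 of 27 of protein import and 1 of 4 of cytochrome c and its relatives held it, as did 5 of the 12 largest rises and 4 of the 12 largest falls. These are matches of letters and not sites shown to be used.

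The genes of the respiratory chain rose together. All 4 subunits of succinate dehydrogenase, all 9 of the cytochrome bc1 complex, 8 of 9 of cytochrome c oxidase and 15 of 17 of the F1Fo ATP synthase were called higher, with list medians of 2.77, 1.87, 1.75 and 1.69 against 0.08 over all genes. CYC1 (YJR048W, chromosome X, 526335 to 526664) lay from 14.7 to 344 RPM (median 69.7) on glucose and from 916 to 2685 RPM (median 1753) on xylulose. The lowest xylulose column was above the highest glucose column, and the ratio was 4.51 (SE 0.22, adjusted p = 3.8e-12), from 2.53 in number 6 to 6.00 in number 12. SDH1 (YKL148C, chromosome XI, 169207 to 171129), the flavoprotein subunit of succinate dehydrogenase, lay from 17.1 to 87.9 RPM (median 42.6) on glucose and from 229 to 488 RPM (median 346) on xylulose. Again the groups did not overlap, and its ratio was 3.02 (SE 0.16, adjusted p = 8.22e-12). CYT1, cytochrome c1 of the bc1 complex, lay from 238 to 852 RPM (median 495) on glucose and from 1239 to 3749 RPM (median 2527) on xylulose, a ratio of 2.29 (SE 0.13, adjusted p = 1.67e-11). The catalytic ATP synthase subunits ATP1 and ATP2 had ratios of 1.78 and 1.91, and INH1, the inhibitor that stops the enzyme from hydrolysing ATP, one of 2.36. The members that went the other way were COX5B and STF2, and STF2, listed with the ATP synthase as a stabilising factor and also known as a stress-induced gene, had a ratio of -1.52 (SE 0.23, adjusted p = 1.48e-05). Electrons from cytosolic NADH enter the chain through Nde1 and Nde2. NDE1 rose by 2.88 (SE 0.21, adjusted p = 4.76e-10) and the matrix enzyme gene NDI1 by 1.92 (SE 0.28, adjusted p = 9.9e-06), while NDE2, blank in most xylulose columns, had -1.01 (SE 0.31, adjusted p = 0.0132).

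The TCA cycle was called higher in 13 of 13 genes, with a median of 1.52. IDH1 (2.18), CIT1 (2.06), ACO1 (2.03), FUM1 (1.93) and KGD1 (1.85), which encode isocitrate dehydrogenase, citrate synthase, aconitase, fumarase and a subunit of ketoglutarate dehydrogenase, were among them. ACO1 lay from 169.9 to 585 RPM (median 353) on glucose and from 1024 to 2155 RPM (median 1358) on xylulose, without overlap. Not every list next to the cycle moved in this way. The pyruvate carrier and pyruvate dehydrogenase had 3 of 7 genes higher and 2 lower (median 0.26), and ubiquinone synthesis 4 of 9 higher and 1 lower (median 0.27). Single inner membrane carriers rose. SFC1, which exchanges succinate for fumarate, was below 10 RPM in 11 of 12 columns and at most 17.5 RPM on glucose and from 23.1 to 546 RPM (median 168) on xylulose, a ratio of 3.89 (SE 0.33, adjusted p = 4.69e-09). The phosphate carrier MIR1 (2.45) and the main ADP/ATP carrier PET9 (2.35) rose as well, whereas AAC3, the ADP/ATP carrier of oxygen-poor cells, fell with -1.65. Over all 21 inner membrane carriers 11 were called higher and 2 lower.

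The machinery that makes mitochondria followed. Of 73 mitochondrial ribosomal protein (mito. RP) genes, 72 were called higher, against 24% of all genes, with a median of 1.53. In 30 of them the 2 sugars did not overlap, against 3.54% of all genes with every xylulose value higher. The exception, MRP8, had -0.33 (adjusted p = 0.0945). The median of this list was above 0 in 12 of 12 numbers, from 0.90 in number 7 to 1.95 in number 4. MRP1 (2.30), MRPL1 (2.29) and RSM26 (2.08) were its largest rises. A list added after values were seen held 22 factors of mitochondrial transcription and translation, and all 22 were called higher (median 1.47), with MSY1 (2.45), the mitochondrial tyrosyl-tRNA synthetase, MEF1 (2.40), an elongation factor, and RPO41 (1.98), the mitochondrial RNA polymerase. Protein import counted 25 of 27 genes higher (median 1.10), cristae, porin and fusion genes 13 of 15 (median 1.28) and assembly factors of cytochrome c oxidase, also listed after values were seen, 17 of 20 (median 1.12). HSP60, the matrix chaperonin, lay from 292 to 779 RPM (median 487) on glucose and from 588 to 1734 RPM (median 1289) on xylulose, so that most but not all columns were separated by sugar. HAP4, the regulated subunit of the activator of the respiratory genes, was from below 10 to 139 RPM (median 65.1) on glucose and from 48.6 to 118 RPM (median 110.2) on xylulose, a ratio of 0.75 (SE 0.26, adjusted p = 0.0246), and its partner HAP3 had 1.33. These were the 2 called higher of 5 genes listed as the HAP complex and HAP regulators, and the other 3 were not called. Of all genes, 24% were called higher. With median-of-ratios scaling 1 of the 5 was higher, and likewise 1 without numbers 8 and 10.

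**Figure D2:**
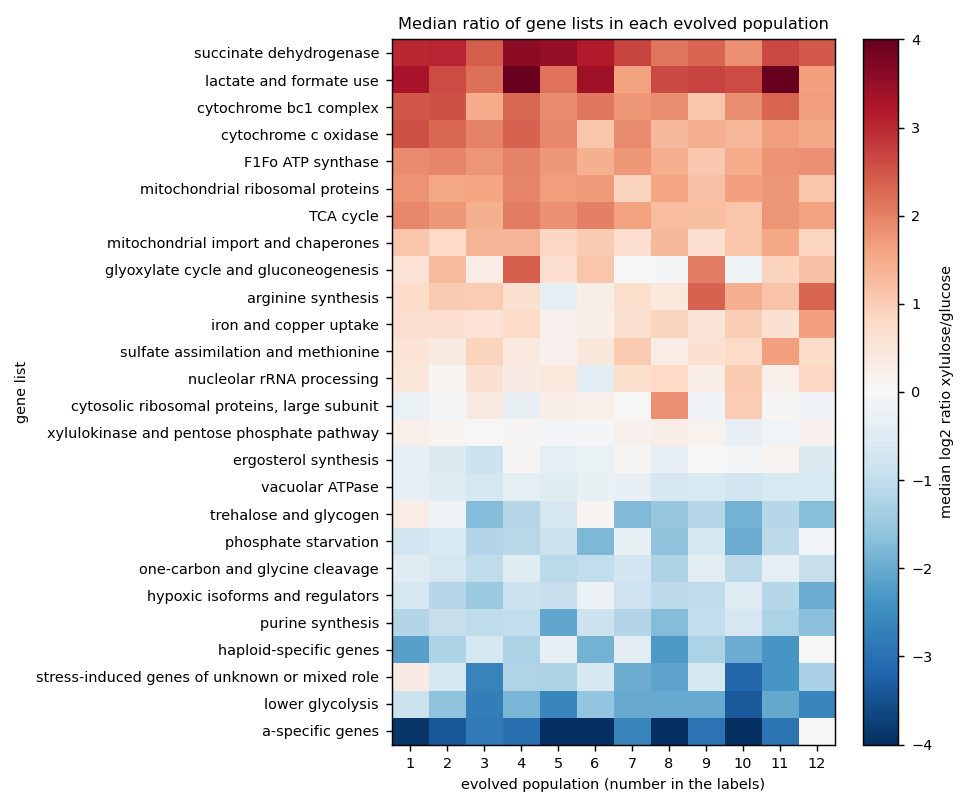
Median ratio of the tested genes of 26 lists in each of the 12 evolved populations (columns), with red for higher on xylulose and blue for higher on glucose on a log2 scale cut at 4. Succinate dehydrogenase, the bc1 complex, cytochrome c oxidase, the ATP synthase, the TCA cycle, mitochondrial ribosomal proteins and mitochondrial import were positive in all 12 populations, lower glycolysis negative in all 12, and the ribosomal list was most positive in numbers 8 and 10.

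Yeast keeps some enzymes in a pair of isoforms of which 1 is used with oxygen and the other without, and several such pairs parted with the sugar. Cytochrome c is encoded by CYC1 and CYC7. CYC7 lay from 129 to 1269.7 RPM (median 282) on glucose and from 35.9 to 712 RPM (median 114) on xylulose, and its ratio was -1.37 (SE 0.29, adjusted p = 0.000761), against 4.51 for CYC1. Subunit Va of cytochrome c oxidase, COX5A, was from 81.8 to 215 RPM (median 119.7) on glucose and from 743 to 1212 RPM (median 973) on xylulose, with 2.91 (SE 0.13, adjusted p = 1.53e-12). Its hypoxic form COX5B lay from 169.9 to 664 RPM (median 333) on glucose and from 21.4 to 80.8 RPM (median 37.1) on xylulose, with -2.97 (SE 0.16, adjusted p = 1.37e-11). Neither of these genes overlapped between sugars. The translation factor eIF5A is encoded by HYP2 and, without oxygen, by ANB1, and they had ratios of 0.68 (adjusted p = 0.000128) and -3.51 (adjusted p = 1.7e-07). Of 14 genes listed as hypoxic isoforms and their regulators, 10 were called lower and 2 higher, with a median of -0.996. The list holds CPR6, a chaperone cofactor that is not a hypoxic gene and was called lower (-0.50). HEM13, the oxygen-requiring step of heme synthesis that is raised when oxygen is short, had a ratio of -2.39 (SE 0.26, adjusted p = 2.14e-07), and FET4, a low-affinity metal transporter, one of -2.49 (SE 0.29, adjusted p = 4.27e-07). ROX1, the aerobic repressor of this group, was from below 10 to 51.0 RPM (median 23.3) on glucose and from 19.1 to 64.4 RPM (median 34.9) on xylulose, a ratio of 0.56 (adjusted p = 0.0549). Among TIR, DAN and CWP mannoproteins, wall proteins made in the cold or without oxygen, 5 of 7 fell, led by TIR1 (YER011W, chromosome V, 175248 to 176012), which lay from 154 to 4237 RPM (median 343) on glucose and below 10 RPM in 11 of 12 columns and at most 10.0 RPM on xylulose. Its ratio was -5.68 (SE 0.33, adjusted p = 2.32e-11), with the blank entries at 10 RPM. CWP2, a major wall protein, had 0.00 (adjusted p = 0.991). Ergosterol synthesis, an oxygen-dependent pathway, had 12 of 25 genes lower and 4 higher. ERG25, the sterol C4 methyl oxidase, had -1.44 (SE 0.15, adjusted p = 1.15e-07) and ERG11 -1.14, while ERG5 rose by 0.68. The fatty acid desaturase gene OLE1 had -1.05.

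**Figure D3:**
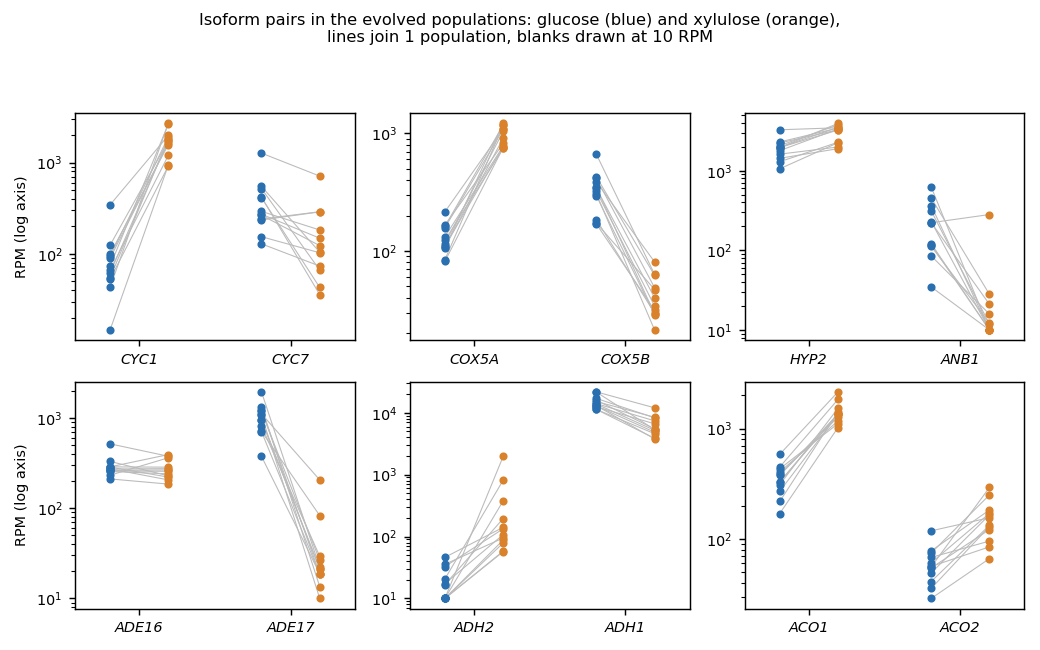
RPM on a log axis of both genes of 6 pairs in the 12 evolved populations, with glucose in blue, xylulose in orange and lines joining the columns of 1 population. CYC1, COX5A and ADH2 lie higher on xylulose in every population and COX5B and ADE17 lower, and ADE16, with a ratio of -0.08, overlaps between sugars.

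Genes under glucose repression rose, with large differences between populations. SUC2 (YIL162W, chromosome IX, 37385 to 38983), invertase, lay from below 10 to 279 RPM (median 66.1) on glucose and from 609 to 4860.4 RPM (median 1813) on xylulose, a ratio of 4.45 (SE 0.38, adjusted p = 4.93e-09), from 1.67 in number 9 to 7.54 in number 6. The groups did not overlap although the ratio varied by more than 5 log2 units between populations. JEN1 (YKL217W, chromosome XI, 22234 to 24084) was from 19.9 to 84.4 RPM (median 46.0) on glucose and from 423 to 2139 RPM (median 817) on xylulose, with 4.22 (SE 0.23, adjusted p = 1.03e-11). Of 6 genes for the use of lactate and formate, 5 were called higher. FDH1 was less even, below 10 RPM in 6 of 12 columns and at most 44.6 RPM on glucose and from 15.2 to 1738 RPM (median 188) on xylulose, with ratios from 0.61 in number 12 to 6.81 in number 11. Of 9 tested genes for sucrose, maltose and galactose, 6 were called higher, among them MAL32 (2.64) and MAL12 (2.00), both maltases. In the glyoxylate cycle and gluconeogenesis 7 of 10 genes were called higher and 1 lower. MLS1, malate synthase, rose by 2.67 (SE 0.37, adjusted p = 4.96e-06), ICL1, isocitrate lyase, by 2.27 (SE 0.36, adjusted p = 2.69e-05), FBP1, fructose-1,6-bisphosphatase, by 2.13 (SE 0.39, adjusted p = 0.000166) and PCK1, phosphoenolpyruvate carboxykinase, by 2.65 (SE 0.53, adjusted p = 0.000406). The gene called lower was CIT2 (-1.35), the peroxisomal citrate synthase. ADH2, which turns ethanol back to acetaldehyde, lay below 10 RPM in 6 of 12 columns and at most 46.1 RPM on glucose and from 56.9 to 1970.1 RPM (median 120.3) on xylulose, a ratio of 3.38 (SE 0.41, adjusted p = 8.61e-07). PDR12, an exporter of weak organic acids, was from below 10 to 70.9 RPM (median 20.7) on glucose and from 119 to 251 RPM (median 173) on xylulose, a ratio of 3.06 (SE 0.22, adjusted p = 3.56e-10), again without overlap.

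Of 23 regulators of this group that were tested, 7 were called higher and 3 lower, which is near the 24% and 15.8% of all genes. CAT8, an activator of gluconeogenic genes, was from below 10 to 37.8 RPM (median 15.4) on glucose and from 27.9 to 123 RPM (median 58.9) on xylulose, a ratio of 1.69 (SE 0.22, adjusted p = 3.24e-06). MTH1, a co-repressor of hexose transporters, had 1.47 (SE 0.22, adjusted p = 1.25e-05), the glucose sensor gene SNF3 1.08 (adjusted p = 0.000464), the activator gene ADR1 0.82 (adjusted p = 0.0198), HXK2 0.43 (adjusted p = 0.0369) and REG1 0.35 (adjusted p = 0.0426). NRG2, a repressor, had the largest change of the 23, from 82.3 to 278 RPM (median 141) on glucose and from 12.8 to 50.2 RPM (median 23.8) on xylulose, with -2.62 (SE 0.19, adjusted p = 7.04e-10) and no overlap. STD1 (-0.92) and the phosphatase gene GLC7 (-0.66) were also lower. The other 13 were not called. Among repressors these were MIG1 (0.05, adjusted p = 0.877), MIG2 (-0.34, adjusted p = 0.299), NRG1 (-0.13) and RGT1 (0.42), and in the Snf1 kinase complex SNF1 (0.20, adjusted p = 0.251), SNF4 (0.28), SIP1 (-0.19), SIP2 (0.02) and GAL83 (-0.17). The phosphatase subunit gene REG2 (0.27), the activator gene RDS2 (-0.18), the sensor gene RGT2 (0.02) and the ubiquitin ligase gene GRR1 (0.32) completed them. With median-of-ratios scaling 4 were called higher and 3 lower, and without number 4 the counts were 3 and 3. The genes of MIG3 and SIP4 were under the level needed for a test.

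The list of hexose transporters moved in both directions, with 4 of 11 tested genes higher and 4 lower. Over all genes the shares were 24% and 15.8%. The list also holds the sensor genes SNF3, 1 of the 4 called higher, and RGT2, which was not called. The low-affinity transporter gene HXT3 was from 135 to 1783 RPM (median 476) on glucose and from below 10 to 103 RPM (median 18.8) on xylulose, a ratio of -4.38 (SE 0.28, adjusted p = 7.9e-11), and HXT1 was from 23.5 to 241 RPM (median 60.5) on glucose and below 10 RPM in all 12 columns on xylulose. The high-affinity HXT7 lay from 18.8 to 1399 RPM (median 606) on glucose and from 209 to 4181 RPM (median 2512) on xylulose, with 2.29 (SE 0.39, adjusted p = 7.72e-05), and HXT6 had 1.69 (SE 0.37, adjusted p = 0.000817). Both were higher in 11 of 12 numbers, and the exception was number 9. HXT2 had 0.66 (adjusted p = 0.0695). HXT4 was the most variable of them, from -4.88 in number 9 to 1.62 in number 5. HXT6 and HXT7 are near-identical neighbours, so that their separate values are uncertain.

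Glycolysis was mostly lower. Of 11 genes of its lower part 10 were called lower and 0 higher, with a median of -2.32, below 0 in 12 of 12 numbers. TDH3, glyceraldehyde-3-phosphate dehydrogenase, lay from 15319.9 to 36334 RPM (median 21542) on glucose and from 6190.1 to 14829 RPM (median 9287) on xylulose, a ratio of -1.36 (SE 0.19, adjusted p = 6.97e-06). Its paralogs TDH1 and TDH2 had -2.85 and -2.60. ENO2, enolase, had -2.55 (SE 0.17, adjusted p = 1.32e-10), GPM1, phosphoglycerate mutase, -2.35 (SE 0.14, adjusted p = 4.74e-11) and CDC19, pyruvate kinase, -2.39 (SE 0.16, adjusted p = 2.47e-10). None of these 3 overlapped between sugars. Upper glycolysis had 7 of 12 genes lower. PGI1 (-1.75), FBA1 (-1.52), PFK2 (-1.28) and TPI1 (-1.19) were among them, and the hexokinase genes HXK1 (1.12, adjusted p = 0.00333) and HXK2 were the 2 called higher. The fermentative PDC1 was from 4663 to 10219.6 RPM (median 8550.4) on glucose and from 1067 to 6176 RPM (median 2405) on xylulose, with -1.67 (SE 0.20, adjusted p = 9.07e-07), and ADH1 from 11321 to 21757 RPM (median 13938) on glucose and from 3778 to 12026 RPM (median 5422) on xylulose, with -1.30 (SE 0.17, adjusted p = 2.05e-06). From acetaldehyde to acetate, ALD4, the mitochondrial aldehyde dehydrogenase, had 1.89 (SE 0.22, adjusted p = 4.26e-07) and ALD6, the cytosolic form, 1.30 (SE 0.38, adjusted p = 0.00907), while the stress-induced ALD3 was lower (-2.05). In glycerol metabolism the synthetic genes GPP1 (-2.38, adjusted p = 3e-09), GPD1 (-1.89) and GPD2 (-1.19) were lower and the genes of its use, GUT1 (2.11, adjusted p = 9.21e-09) and GUT2 (2.19), higher. Storage carbohydrates had 10 of 20 genes lower and 1 higher, GAC1. PGM2, phosphoglucomutase, had -2.31 (SE 0.31, adjusted p = 3.82e-06), the glycogen synthase gene GSY1 -2.08 and the trehalose phosphatase gene TPS2 -1.96. The median of this list was above 0 in numbers 1 and 6 and below 0 in the other 10.

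The genes of the route of xylulose itself showed small or no calls. XKS1 (YGR194C, chromosome VII, 886073 to 887875), which encodes xylulokinase, lay from 28.3 to 118 RPM (median 64.5) on glucose and from 20.0 to 88.7 RPM (median 54.4) on xylulose. The columns of both sugars overlapped over most of their range, and the ratio was -0.27 (SE 0.18, adjusted p = 0.245), lower in 8 of 12 numbers. In the same paired fit TKL1, transketolase, had 0.42 (SE 0.13, adjusted p = 0.0144), TAL1, transaldolase, 0.41 (SE 0.13, adjusted p = 0.0182), RKI1, ribose-5-phosphate ketol-isomerase, 0.89 (SE 0.18, adjusted p = 0.000359) and RPE1, ribulose-5-phosphate epimerase, 0.05 (adjusted p = 0.748). The oxidative branch rose at its first step, with ZWF1 (glucose-6-phosphate dehydrogenase) from 30.8 to 163 RPM (median 92.0) on glucose and from 129.5 to 393 RPM (median 208) on xylulose, a ratio of 1.52 (SE 0.16, adjusted p = 1.98e-07), and GND1 0.96 (adjusted p = 3.27e-05). Its minor isoforms SOL4 (-2.10) and GND2 (-1.92) were lower, and the minor isoforms TKL2 (-0.95, adjusted p = 0.0729) and NQM1 (-0.67, adjusted p = 0.119) were not called. YDL124W, an aldo-keto reductase gene, was lower (-0.96) and GRE3, which encodes an aldose reductase that can reduce xylose, had -0.29 (adjusted p = 0.294). The lactonase gene SOL3 had 0.03, and the 5 phosphoribosyl pyrophosphate synthetase genes PRS1 (0.07), PRS2 (-0.18), PRS3 (0.15), PRS4 (0.10) and PRS5 (0.16) were not called. Of 19 tested genes of this list 5 were called higher and 3 lower, near the 24% and 15.8% of all genes, with a median of 0.05 that turned to -0.05 under median-of-ratios scaling. The genes XYL2, SOR1 and SOR2 were under the level needed for a test.

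Copper uptake genes and metallothionein genes moved in opposite directions. The 4 targets of the copper-sensing activator Mac1, a list added after values were seen, were all higher: CTR1 from below 10 to 75.1 RPM (median 16.7) on glucose and from 137 to 748 RPM (median 364) on xylulose, CTR3 below 10 RPM in 6 of 12 columns and at most 62.3 RPM on glucose and from 16.5 to 1154 RPM (median 417) on xylulose, FRE7 and FRE1. Their ratios were 4.19 (SE 0.24, adjusted p = 2.14e-11), 4.10 (SE 0.38, adjusted p = 1.96e-08), at least 4.00 and 2.47. The metallothionein gene CUP1-1, a target of the activator Cup2 that protects against excess copper, was from 1122 to 6418 RPM (median 2659) on glucose and from 23.0 to 661 RPM (median 206) on xylulose, with -4.25 (SE 0.32, adjusted p = 8.62e-10) and no overlap. CRS5, the other metallothionein, also fell, with -1.61, while SOD1, superoxide dismutase, of the same list of 4 rose (0.64). The regulators MAC1 (0.06, adjusted p = 0.835) and CUP2 (-0.11, adjusted p = 0.658) were not called. Over the 23 iron and copper uptake genes 13 were called higher and 1 lower, including the iron genes FIT3 (2.66, adjusted p = 2.04e-08), FIT2 (2.37, adjusted p = 3.29e-05), ARN1 (2.04, adjusted p = 2.72e-06), FET3 (1.02, adjusted p = 0.00413) and FTR1 (0.76, adjusted p = 0.000126).

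Nitrogen, sulfur and nucleotide pathways did not move as a block. Purine synthesis had 10 of 15 genes lower and 1 higher, with a median of -1.17. ADE17 (YMR120C, chromosome XIII, 507502 to 509280) lay from 375 to 1947 RPM (median 1017) on glucose and from below 10 to 206 RPM (median 21.3) on xylulose, a ratio of -5.19 (SE 0.30, adjusted p = 2.32e-11), while ADE16, the paralog with the same catalytic activity, lay from 211 to 517 RPM (median 273) on glucose and from 185 to 393 RPM (median 261) on xylulose, with -0.08 (adjusted p = 0.629). ADE13 (-2.65), ADE1 (-2.46) and ADE57 (-2.15) fell in all 12 numbers, and the gene called higher was the activator gene BAS1 (1.11, adjusted p = 0.000845). Of 12 one-carbon and glycine cleavage genes 7 were called lower and 2 higher. SHM2, cytosolic serine hydroxymethyltransferase, was from 602 to 2382 RPM (median 1267) on glucose and from 111 to 366 RPM (median 212) on xylulose, a ratio of -2.52 (SE 0.14, adjusted p = 1.83e-11). MTD1 had -2.44 and GCV1 of glycine cleavage -1.41. The mitochondrial SHM1 had 0.12 (adjusted p = 0.359). NAD synthesis from tryptophan or nicotinic acid, a list added after values were seen, had 9 of 14 genes lower and 0 higher. The nicotinic acid transporter gene TNA1 had -1.94 (SE 0.17, adjusted p = 8.95e-09), without overlap, and BNA6 -1.55. Opposite to these, AGX1, which makes glycine from glyoxylate, was from below 10 to 37.1 RPM (median 14.9) on glucose and from 159.9 to 651 RPM (median 279) on xylulose, a ratio of 4.16 (SE 0.22, adjusted p = 1.03e-11), from 2.24 in number 3 to 5.40 in number 4. Sulfate assimilation and methionine genes had 14 of 26 higher and 0 lower, with MET17 from 16.2 to 298 RPM (median 84.8) on glucose and from 411 to 1098 RPM (median 526) on xylulose, a ratio of 2.95 (SE 0.37, adjusted p = 1.33e-06), MET10 (1.62) and the S-methylmethionine permease gene MMP1 (2.19). CACGTG, here the site of Cbf1, stood in 17 of 26 promoters of this list. Arginine synthesis had 7 of 10 genes higher, with ARG1 2.01 (SE 0.22, adjusted p = 2.84e-07), and lysine synthesis 5 of 9, with LYS2 1.27 (adjusted p = 1.5e-05). Histidine synthesis was split, with HIS4 at -1.49 (SE 0.21, adjusted p = 8.87e-06) and HIS1 at -0.94 (adjusted p = 0.00106) against HIS6 at 0.96 (adjusted p = 0.000452). GCN4, the activator of most of these genes, lay from 1018 to 1548 RPM (median 1145) on glucose and from 1842 to 2616 RPM (median 2071) on xylulose, a ratio of 0.85 (SE 0.10, adjusted p = 9.59e-07) without overlap. Its transcript level is a weak measure of its activity, which is set mainly by translation. In the vacuolar ATPase 11 of 15 genes were lower and 1 higher, from -1.06 for VMA8 to 0.81 for STV1, the Golgi form of a subunit.

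Several groups of genes were high in the evolved glucose columns and low in the other 3 groups of columns. Phosphate starvation genes are switched on by Pho4 when phosphate is scarce, and 16 of 24 were called lower on xylulose and 3 higher. PHO5 (YBR093C, chromosome II, 429548 to 430951), the main secreted acid phosphatase, lay from 69.0 to 4788 RPM (median 256) on glucose and below 10 RPM in all 12 columns on xylulose. In the wild type it lay from below 10 to 89.4 RPM (median 29.98) on glucose and below 10 RPM in 6 of 12 columns and at most 97.1 RPM on xylulose. The difference between evolved and wild type ratios was -4.33 (SE 0.62, adjusted p = 2.31e-05). PHO84, the high-affinity phosphate transporter, lay from 71.9 to 1674 RPM (median 492) on glucose and below 10 RPM in 6 of 12 columns and at most 77.1 RPM on xylulose, against from below 10 to 57.9 RPM (median 17.5) in wild type glucose columns. PHM6, SPL2 and VTC1 of the same regulon had ratios of at least 5.25 in size, -3.97 and -1.89. PHO4 itself moved the other way, from 29.8 to 106 RPM (median 41.4) on glucose and from 80.5 to 328 RPM (median 137) on xylulose, with 1.74 (SE 0.17, adjusted p = 3.23e-08). Number 12 was an exception for some of these genes: its ratios for PHO12, PHO84 and PHO89 were -0.12, -0.35 and 0, and the median of the list there was -0.10. PHO84 of number 12 had 92.5 RPM on glucose and 72.4 on xylulose. PHO5 fell there as well, from 69.0 RPM on glucose to below 10 RPM on xylulose. The next smallest median of the list was -0.31, in number 7. The glucose column of number 12 also held the fewest genes with a value, 4584.

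Mating genes showed the same pattern. In yeast, a/alpha diploid cells do not express the a-specific and haploid-specific genes, and the ploidy of the founders is not given in the sources used here. Summed over 7 a-specific genes, the evolved glucose columns ran from 41.1 to 4913 RPM with a median of 1467, the evolved xylulose columns from 12.1 to 47.2, and the wild type columns from 11.7 to 99.9 over both sugars. The 41.1 RPM belong to number 12, and the next value is 752. MFA2, which encodes the pheromone precursor, was from 41.1 to 2280.2 RPM (median 602) on glucose and from 10.4 to 28.6 RPM (median 15.2) on xylulose, a ratio of -4.89 (SE 0.39, adjusted p = 2.27e-09), and STE2, the receptor gene, from below 10 to 498 RPM (median 221) on glucose and below 10 RPM in 10 of 12 columns and at most 13.7 RPM on xylulose. All 6 tested a-specific genes and 9 of 11 haploid-specific genes were called lower on xylulose, against 15.8% of all genes. The ratio was lower than in the wild type for 6 of 6 and 8 of 10 tested genes of these lists, against 5.91% of all genes. Genes near the floor elsewhere, such as STE2, reached the level needed for a test through the evolved glucose columns. These counts were therefore in part set by the filter. Summed over 11 haploid-specific genes the medians were 492 RPM on glucose and 61.9 on xylulose in the evolved columns, against 59.8 and 78.6 in the wild type. The alpha-specific genes were high in some columns of every group: summed over 5 genes they had a median of 40.4 RPM on glucose and 10.3 on xylulose in the evolved columns, with single columns up to 742 and 446, and up to 1779.9 and 1243 in the wild type.

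Stress genes were likewise higher in most evolved glucose columns than on xylulose, with a wide spread. Of 21 stress-induced genes 15 were called lower on xylulose and 2 higher (median -1.67, against -0.23 in the wild type), and of 26 heat shock proteins and chaperones 15 were lower and 3 higher, the 3 being the mitochondrial chaperones HSP60, HSP10 and MDJ1. HSP26, a small heat shock protein, was from 23.6 to 2592 RPM (median 307) on glucose and from below 10 to 33.9 RPM (median 15.5) on xylulose, with ratios from -8.02 in number 10 to 0.12 in number 1. HSP12, a membrane stress protein, ran from -7.70 in number 10 to 0.65 in number 1. GAP1, the general amino acid permease, was from 10.3 to 555 RPM (median 127) on glucose and below 10 RPM in 8 of 12 columns and at most 28.6 RPM on xylulose, a ratio of -2.91 (SE 0.48, adjusted p = 5.27e-05). CDA1, a chitin deacetylase of the spore wall, was from below 10 to 891 RPM (median 239) on glucose and below 10 RPM in all 12 columns on xylulose, while in the wild type it was below 10 RPM in all 12 columns on glucose. Markers of the stationary phase summed to a median of 601 RPM on glucose and 132 on xylulose in the evolved columns, and to 190.4 and 465 in the wild type. Number 1 had a median of 0.33 over the stress-induced genes and number 10 of -3.14. In most evolved populations the stationary phase markers, phosphate genes and mating genes were higher on glucose. In the wild type the median of the stationary phase markers was higher on xylulose. The part of these groups in the ratios of other genes was not tested.

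**Figure D4:**
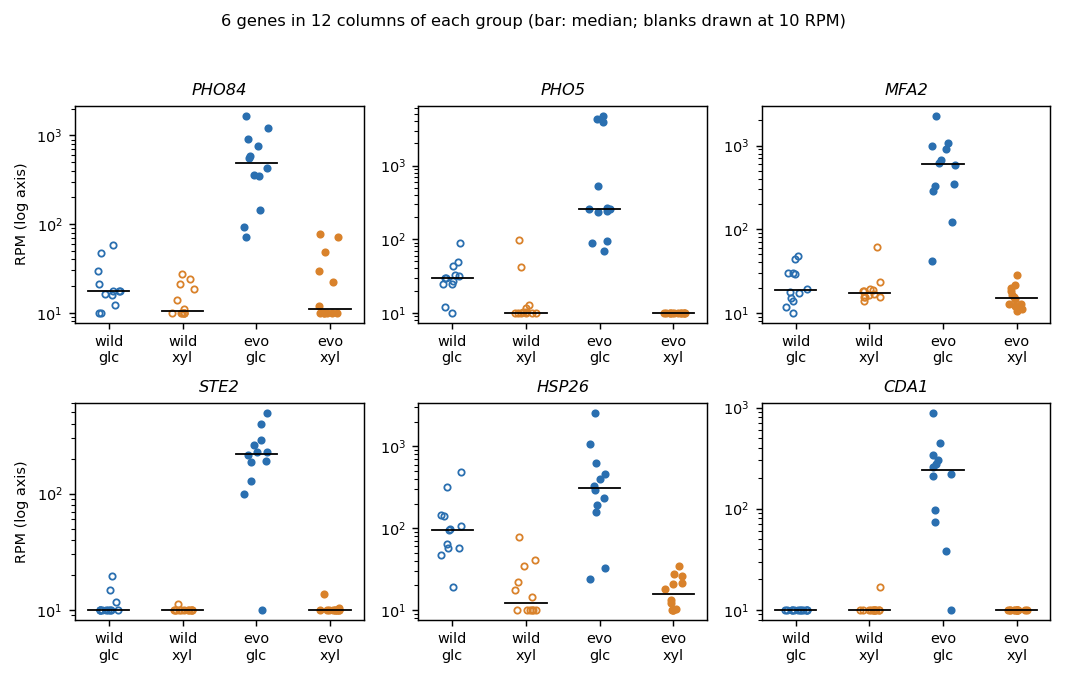
RPM on a log axis of PHO84, PHO5, MFA2, STE2, HSP26 and CDA1 in the 12 columns of each of the 4 groups, with bars at the median and blanks drawn at 10 RPM. Most evolved glucose columns lie far above the other 3 groups for the phosphate and mating genes and for CDA1, and for HSP26 the wild type glucose columns lie between.

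Cytosolic ribosomal proteins (RP) depended on 2 populations. Of 81 large subunit genes 22 were called higher on xylulose and 1 lower, and of 57 small subunit genes 10 were higher and 0 lower, which is near the 24% of all genes. With median-of-ratios scaling 8 and 7 were higher. The medians were 0.25 and 0.24. By number they ran from -0.30 to 1.81 for the large subunit, with 1.81 in number 8, and were above 0 in 7 of 12. Without numbers 8 and 10, a choice made after seeing the values, 14 large subunit genes were higher and 14 lower (median -0.01), and 8 and 4 of the small subunit (median 0.01). RPL3 lay from 1807 to 5743 RPM (median 4467) on glucose and from 3230.2 to 5789 RPM (median 4672) on xylulose, with ratios from -0.26 in number 9 to 1.37 in number 8. Near-identical copies make single RP genes uncertain. Genes of rRNA processing in the nucleolus rose more evenly, with 31 of 60 higher and 1 lower (median 0.49), 21 higher without numbers 8 and 10, and above 0 in 11 of 12 numbers. NOP2 (1.22, adjusted p = 4.85e-06) and RRP12 (1.11, adjusted p = 0.000404) led them.

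The populations differed in how much they responded. By number, 725 to 1270 genes were at least 2-fold higher and 440 to 1022 at least 2-fold lower, with number 12 highest in the first count and number 10 in the second. The glucose columns of both had a visible single-read step. That of number 12 held values for 4584 genes, the fewest of the 24 columns, against 5021 on xylulose. The part of these traits in the counts was not tested. Across genes, each population's ratios correlated with the mean of the other 11 with r from 0.606 (number 12) to 0.789 (number 11), a description over genes that are not independent replicates. Levels were more alike on xylulose than on glucose. The correlation of log2 levels between populations, over 66 pairs, had a median of 0.927 on xylulose and 0.856 on glucose. Of 3656 genes with a value in all 24 columns, 80.8% had the larger SD over populations on glucose, with a median SD of 0.56 on glucose and 0.37 on xylulose. A visible single-read step marked 4 of the 12 glucose columns and 1 of the 12 xylulose columns. Its part in this difference of spread was not tested. Where the mean level reached 50 RPM, the ratio that varied most was that of PCK1, -1.48 in number 7 and 7.37 in number 4, followed by PHO12, HSP12, STL1, FDH1 and HXT4. Number 4 stood at the high end for ADH2 (7.62 in number 4), FBP1 (5.01 in number 4) and PCK1, while number 11 had the highest ratios of FDH1 and JEN1. STL1, a glycerol transporter, was below 10 RPM in 7 of 12 columns and at most 49.3 RPM on glucose and from below 10 to 459 RPM (median 36.2) on xylulose, with ratios from -2.30 in number 8 to 5.52 in number 9.

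Most genes at least 2-fold higher after evolution were also called higher before it. Of the 493 genes at least 2-fold higher, 470 were also called higher in the wild type, and of the 301 at least 2-fold lower, 178 were also called lower there. Genes not tested in the wild type were counted as not called, and 5016 of the 5136 genes were tested in both. Some of the 301, such as STE2, reached the level needed for a test through the evolved glucose columns. The share of all genes called in the wild type is not given here, so these counts are not set against it. The evolved and wild type ratios themselves were compared for 5129 genes. In 38 (0.741%) the evolved ratio was higher and in 303 (5.91%) lower, against a median difference of -0.20 over all genes. The count of 38 was not stable: it was 25 without number 2, 8 without number 3, 11 without number 5, 22 without number 7, 6 without number 10 and 19 without number 11, and 77 when evolved numbers 5 to 8 were paired with wild type 9 to 12 and the reverse, a pairing tried after seeing the values. The count of lower ratios lay between 207 and 299 with 1 number left out, and was 377 in the exchanged pairing, 187 with a pseudocount of 1 and 104 where every column had to hold a value. Among genes at least 2-fold lower on xylulose after evolution the ratio had fallen in 73 of 294 tested, and among those at least 2-fold higher in 13 of 493. Both sets were chosen by the evolved ratio, which also enters the difference. That choice alone raises the first share and lowers the second. Among the lists, lower ratios numbered 15 of 24 tested for phosphate genes, 6 of 10 for arginine synthesis and 7 of 9 for lysine synthesis. Aromatic amino acid synthesis had 5 of 13, haploid-specific genes 8 of 10 and a-specific genes 6 of 6. Stress-induced genes had 7 of 21, stationary phase genes 5 of 11 and heat shock proteins and chaperones 5 of 26. Over all genes the share was 5.91%. LYS20, of lysine synthesis, had a ratio of 0.96 after evolution and 3.04 before, a difference of -2.08 (SE 0.40, adjusted p = 0.00118). SNZ1, a gene of vitamin B6 synthesis, had -1.66 after evolution and 3.56 before, a difference of -5.22 (SE 0.62, adjusted p = 6.18e-07). NRG2 went from -1.28 to -2.62 and COX5B from -1.72 to -2.97, with differences of -1.34 (SE 0.34, adjusted p = 0.0128) and -1.25 (SE 0.35, adjusted p = 0.0271). In the pentose phosphate pathway TAL1 went from 1.11 to 0.41, a difference of -0.70 (SE 0.18, adjusted p = 0.0171). Carriers of the inner membrane gave YMC1 (-1.35) and CTP1 (-1.34), and porin, POR1, -0.82. The higher ratios included 14 of 81 large and 13 of 57 small subunit RP genes, against 0.741% of all genes. RPL3 was 1 of them, at 0.58 (SE 0.17, adjusted p = 0.0334). Without number 10 only 1 large and 0 small subunit genes were called (the medians of the difference were then 0.43 and 0.44, against 0.52 and 0.52), without number 3 they were 3 and 1, and without number 5 they were 4 and 2. RPL3 itself lost its call without number 3, 4, 5, 10 or 11, with adjusted p from 0.0512 to 0.0856. Other higher ratios were, in nucleotide and one-carbon metabolism, IMD4 (0.82) and MIS1 (0.95). Of the 12 genes that rose most in the evolved populations, 0 had a ratio called different from that of the wild type: that of CYC1 was 4.09 before and 4.51 after, a difference of 0.42 (SE 0.43, adjusted p = 0.616). Of the 12 that fell most, TIR1, ADE17, HXT3 and CUP1-1 also gave no call, and the other 8, the phosphate and mating genes, were all called lower than in the wild type. Both groups of 12 were likewise chosen by the evolved ratio, so these counts are no separate support.

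**Figure D5:**
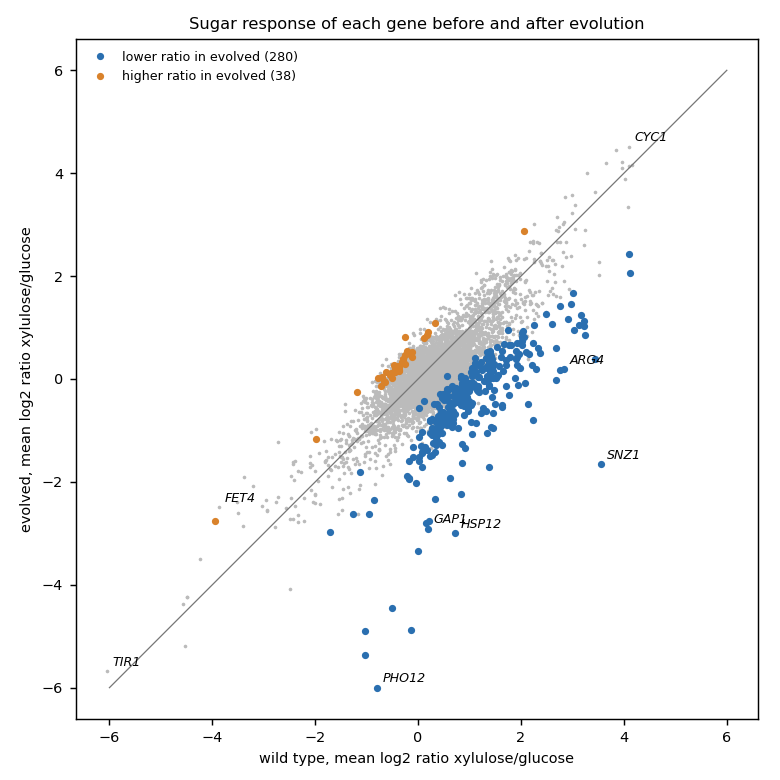
Mean ratio of each gene in the wild type (horizontal axis) and in the evolved populations (vertical axis), both log2 of xylulose over glucose, for 5016 genes tested in both, with the line of equal ratios. Orange points (38) have a higher and blue points (280) a lower ratio after evolution by the test of the difference, and CYC1 and TIR1 lie near the line while PHO12 and SNZ1 lie far below it.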

How the data were processed

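RNA of 12 yeast strains, before and after evolution on xylulose, was measured by poly-A selected, single-end 50 base RNA sequencing with molecular identifiers. The authors aligned reads with Bowtie to S288c genome build R64, removed ribosomal RNA reads, scaled each library to a total of 1000000 (RPM) and deposited log2 RPM values, with 1 column for the 2 repeats and values below 10 RPM left blank. The study reports averaging over the 2 repeats, and the columns hold no values of single repeats, so the spread between repeats is unknown. Every error here is the spread between 12 numbers, and blanks hide changes of low genes.

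Blanks were set to 10 RPM, and genes whose mean over the 24 evolved columns reached 10 RPM (blanks as 0) were tested with limma (3.58.1, R 4.3.3, intensity trend) on the 12 paired log2 differences, with Benjamini-Hochberg adjustment and a threshold of 0.05. The change against the wild type was fitted between 2 groups of 12 differences. Pairing by number was part of the main test. Deviations of same-numbered columns from their group means correlated from -0.03 to 0.43, above 0.1 in 10 of 12 pairs. Depth was read from the steps of low values and was unknown for most columns, so no counting intervals are given. Alternatives were other pseudocounts (1, 10 and 30), filters, scaling by median of ratios, no trend, a robust fit, no block and each number left out. Genes are named by size of the ratio (the 12 largest in each direction with 1 sign in at least 11 of 12 numbers), by list (up to 4 largest members, isoform partners), by variability (where the mean level reached 50 RPM) and, in the regulator and pentose lists, in full. Others were chosen after their values were seen, and 1 gene is not reported here. Members and lists were chosen with earlier results of these data known, and 5 lists were added after values were seen. Names of 5953 of 6701 rows matched the annotation. Python 3.11.15 with pandas 2.3.3 was used for the tables.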

Additional observations from a re-analysis of the deposited data

Results flagged for a closer look

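For 31 of the genes named in the report the ratio of the evolved populations differed from that of the wild type by limma's test of the difference with Benjamini-Hochberg adjustment. The values are differences of log2 ratios, evolved minus wild type, over 12 and 12 numbers. Among phosphate starvation genes they were -5.19 for PHO12, -4.80 for PHM6, -4.33 for PHO5, -4.27 for PHO89, -3.93 for PHO84, -3.85 for PHO11, -3.76 for SPL2 and -1.69 for VTC1. Mating genes gave -4.79 for MFA1, -4.75 for MFA2 and -3.95 for STE2. CDA1 had -4.09, GAP1 -3.11, HSP12 -3.71 and HUG1, a DNA damage gene, -1.38. In amino acid and vitamin synthesis the differences were -5.22 for SNZ1, -2.08 for LYS20, -1.23 for LYS2, -1.73 for HIS4 and -1.61 for HIS1.

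In the pentose phosphate pathway TAL1 (-0.70, SE 0.18, adjusted p = 0.0171), NQM1 (-2.12, SE 0.51, adjusted p = 0.0105) and GND2 (-2.54, SE 0.57, adjusted p = 0.00588) had lower ratios after evolution. In the wild type their ratios were 1.11, 1.45 and 0.62. NRG2 (-1.34), COX5B (-1.25), YMC1 (-1.35), CTP1 (-1.34) and POR1 (-0.82) were lower too. The ratios that were higher after evolution were those of MIS1 (0.95), IMD4 (0.82) and RPL3 (0.58), and that of RPL3 lost its call without number 3, 4, 5, 10 or 11 (adjusted p from 0.0512 to 0.0856).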

How the results depend on the processing

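Of 4506 gene values recomputed under the alternatives for 200 named genes, 4449 kept their direction and side of the threshold, 45 lost the call, 12 gained it and 0 reversed. Of 74 list medians, 54 moved by less than the spread between numbers under all alternatives. The count of genes higher on xylulose lay within 1.5 times 1234 under all alternatives, from 1129 to 1235 with 1 number left out, and the count lower from 694 to 826. With a minimum of 50 RPM 533 genes were lower, among 3039 tested. Without the replicate block, so without the pairing by number, 1118 were higher and 729 lower. For the comparison with the wild type the pairing by number is uncertain for numbers 5 to 12, where strain-typical genes matched other wild type numbers best. With a replicate block 25 ratios were higher and 254 lower, and with the exchanged replicate block, chosen after seeing the data, 77 and 377. Higher ratios numbered 25 with no filter, 7 with no trend, 23 with a pseudocount of 1 and 6 to 44 with 1 number left out, and lower ratios 104 where every column had to hold a value (2528 tested), 187 with a pseudocount of 1 and 207 to 299 with 1 number left out. At an unadjusted p under 0.05 the ratios of 1152 genes differed. The cause of these shifts was not tested. The 10 RPM floor limits values of low genes, and unknown depth leaves counting error unmeasured.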
